A study of Mus musculus with 3 samples.

Results

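The defensin gene cluster of mouse chromosome 8 was examined as the stretch of chr8 from 22 to 23 Mb on build mm9, with the methylated DNA of adult frontal cortex measured on a tiling array. Its members are 26 tiled regions, of 28880 on the array, made by joining at least 3 non-control probes whose starts lay at most 500 bp apart. The window holds 270 of the 409597 placed probes. It was chosen by the low log2 ratios of bound over input DNA that its regions had on these same arrays, so the ratios below describe it. Calls against the array median are given beside the share called over the array, as a description that repeats this choice and supports nothing. The array files name no gene and no mm9 annotation was used here, so the label could not be checked against the probes, and no region is assigned to a gene, exon, intron or UTR.

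By its title, the study asked whether methylated start sites of genes are bound by TBP, the TATA-binding protein, and transcribed by RNA polymerase II. Frontal cortex DNA came from naive male C57BL/6 mice of 2 months, pooled from 3 animals per sample, and the 3 pools form 1 group with no second treatment, strain or age. Fragments carrying methylated cytosine were captured from 2 µg of sonicated DNA with an antibody to 5-methylcytosine described as not binding hydroxymethylated DNA, a method called MeDIP. Bound and input DNA were each amplified over the whole genome and hybridised together, input in Cy3 and bound in Cy5 on every array, so a dye effect and enrichment cannot be told apart. Pooled tissue holds neurons, glia and vessels, whose shares cannot be separated. The titles number the pools 1 to 3 whereas the descriptions give all of them replicate 1. If arrays shared a pool, the SDs would cover the spread between arrays alone.

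Defensins are short cationic peptides, held together by disulfide bonds, that disrupt microbial membranes. In mice the alpha-defensins, also called cryptdins, are stored and released by Paneth cells at the base of the small intestinal crypts, whereas beta-defensins are made mainly by surface epithelia and the male reproductive tract. The genes lie in tandem arrays that grew by repeated duplication, so neighbouring copies can be near-identical, and neither group is chiefly known from brain cortex. Methylation in mouse tissues lies mainly at CpG dinucleotides and, in adult neurons, also at other cytosines. Capture by the antibody rises both with the number of such sites in a fragment and with the share of them that is methylated, and these cannot be told apart from the ratio.

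The gene order and promoters come from RefSeq on GRCm38.p6, another build than that of the array, and were used to show what kind of sequence the cluster holds, without a join to the probes. In that order 29 of the 30 protein-coding genes from the first to the last alpha-defensin were alpha-defensins, followed by 9 beta-defensins from Defb1 to Defb13. Promoters of 300 bases, 250 before and 50 after the start, were found for 16 of 29 alpha-defensin and 14 of 26 genes on the beta-defensin list of chromosome 8. That list also holds the beta-defensin-related Spag11 genes, but every promoter found was of a gene named Defb. These came from both sides of the alpha-defensins, with Defb38 and Defb8 before the first and Defb13 after the last. The beta-defensin figures may therefore cover genes outside the window. The promoters are shown for their CpG number, since CpGs are the main sites the antibody can bind. The part of CpG number in the array values was not tested. The members with the most and the fewest CpGs in each family follow, with each CpG in capitals.
Defa30, chr8:21134400-21134699, + strand: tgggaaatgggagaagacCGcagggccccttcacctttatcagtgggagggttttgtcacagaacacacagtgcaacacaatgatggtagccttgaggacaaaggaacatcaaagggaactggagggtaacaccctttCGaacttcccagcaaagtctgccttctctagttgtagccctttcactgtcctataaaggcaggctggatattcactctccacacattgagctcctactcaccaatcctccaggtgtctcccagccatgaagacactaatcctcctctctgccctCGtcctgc
Defa41, chr8:21201354-21201653, + strand: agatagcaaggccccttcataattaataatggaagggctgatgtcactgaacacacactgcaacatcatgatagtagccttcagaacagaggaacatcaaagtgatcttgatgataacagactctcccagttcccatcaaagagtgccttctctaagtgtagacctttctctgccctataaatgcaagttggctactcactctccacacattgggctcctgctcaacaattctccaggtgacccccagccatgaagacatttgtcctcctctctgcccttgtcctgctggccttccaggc
Defb13, chr8:21946505-21946804, + strand: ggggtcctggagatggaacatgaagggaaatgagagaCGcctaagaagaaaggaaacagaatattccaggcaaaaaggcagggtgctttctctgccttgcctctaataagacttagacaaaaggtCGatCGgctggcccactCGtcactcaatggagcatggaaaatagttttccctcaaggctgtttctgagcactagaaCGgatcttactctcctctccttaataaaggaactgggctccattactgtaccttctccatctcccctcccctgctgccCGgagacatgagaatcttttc
Defb10, chr8:21858651-21858950, + strand: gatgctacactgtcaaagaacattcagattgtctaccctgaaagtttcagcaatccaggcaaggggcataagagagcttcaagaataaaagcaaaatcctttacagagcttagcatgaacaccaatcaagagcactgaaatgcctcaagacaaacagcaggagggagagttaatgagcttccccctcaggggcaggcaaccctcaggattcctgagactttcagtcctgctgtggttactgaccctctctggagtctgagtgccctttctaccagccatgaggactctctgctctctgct

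The alpha-defensin Defa30 had 3 CpGs in its promoter, the most in its family, and Defa41 had 0. Among the beta-defensins Defb13 had 6, and Defb10 had 0. Such promoters were CpG-poor beside those of other genes: 15 of 16 alpha-defensin promoters (93.8%) and 9 of 14 beta-defensin promoters (64.3%) had at most 1 CpG, whereas 14.1% of all 32851 promoters in the table did. The median was 1 CpG in both families and 7 over all promoters, and none of these 30 defensin promoters reached the 10 CpGs found in 43.5% of all. GC content was less apart, with a median of 47.2% for alpha-defensins and 52.7% over all promoters. Since the study concerned TBP, the motif TATAAA was counted on either strand of the 300 bases. It was present in 15 of 16 alpha-defensin promoters (93.8%), in 2 of 14 beta-defensin promoters (14.3%) and in 13.6% of all promoters. At 20 to 40 bases before the annotated start it was present in 7 alpha-defensin promoters (43.8%) and 1.99% of all. A match of letters is a description and not a bound site.

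The copies were also alike. Of the 256 runs of 45 bases, the length of the shortest probes, in each promoter, the median share also found in the promoter of another gene was 100% for alpha-defensins, and the 16 alpha-defensin promoters comprised 11 distinct sequences. Defa2, Defa20 and Defa21 shared every run, Defa41 shared 71.5%, and Defa30 shared 0 of 256. For beta-defensins of chromosome 8 the median was 2.54% and the highest 21.1%, in Defb8. A probe placed on such a copy could pair with DNA of several genes. Probe sequences were not used here, so the number of genomic matches of each probe was not tested.

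The window was tiled more thinly than the array at large. Its 26 regions ran from 22040518 to 22996059, with a median of 9.5 probes and 1029.5 bp (193 to 2833 bp), against 14 probes and 1341 bp over all regions. Of its 39 groups of neighbouring probes, 33.3% had fewer than 3 probes and formed no region, against 9.03% over the array. These were 12 single probes and 1 pair. The flank intended below, from 20 to 22 Mb, had no probe at all, inside an untiled gap of 2081823 bp. The comparison therefore rested on the flank above, from 23 to 25 Mb, with 583 probes in 44 regions. A stretch below the gap, from 18 to 20 Mb with 324 probes in 23 regions, was added after the data were seen.

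All ratios are log2 of bound over input signal after each array was centred on its median probe, so 0 is the median probe and not an unmethylated standard. Over all probes the input signal was well above background for 69.0 to 83.3% of spots on the 3 arrays and the bound signal for 47.3 to 65.9%, with pool 1 the highest in both. Between arrays, Pearson's r over all tiled regions was 0.90 to 0.93, as a description over features that share the arrays.

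Bound DNA was low throughout the defensin window. The mean over its 26 regions was -1.32 in pool 1, -1.04 in pool 2 and -0.79 in pool 3. The mean was -1.05 ± 0.27 (SD, n = 3 pools), a ratio 2.07-fold below the median probe. All 26 regions were below 0 in every pool, whereas 13092 of 28880 regions on the array and 23 of 44 in the flank above were. In the flank above, the pools had means of 0.018, -0.0049 and -0.022, close to 0 in each. The window was lower than that flank by the same sign in every pool, with differences of -1.34, -1.04 and -0.76 and a mean of -1.05 ± 0.29. The 3 pools of the window lay below all 3 pools of the flank. The stretch below the gap was intermediate at -0.57, -0.38 and -0.29, and the window minus that stretch was -0.64 ± 0.13. Pool 1 was the lowest and pool 3 the least low in the window and in the stretch below the gap. With normexp background correction in place of the scanner's own, the difference from the flank above was -0.46 ± 0.18, and with both signals above background it was -1.61 ± 0.11. The cause of these moves was not tested.

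**Figure D1:**
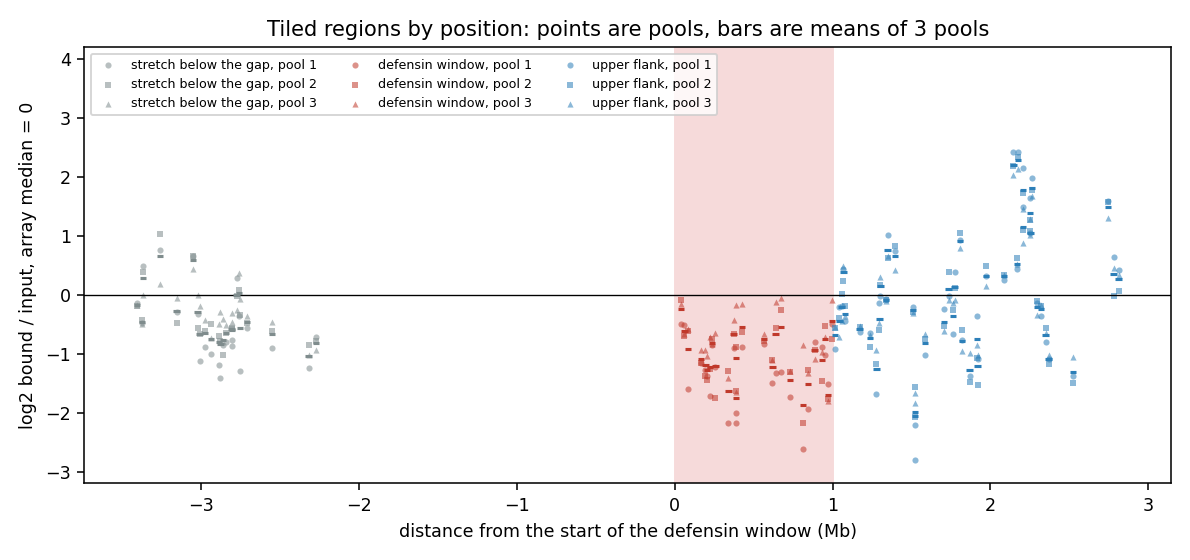
Each tiled region's log2 ratio of bound over input DNA (vertical axis, array median at 0) against its distance in Mb from the start of the defensin window (horizontal axis), for the stretch below the gap, the window (shaded) and the flank above. Points are the 3 pools and short bars their means; all window means lie between -1.88 and -0.25, the flank above spreads from -2.06 to 2.29, and no probe was placed in the 20 to 22 Mb interval.

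The regions of the window varied less among themselves than those of the flank above. Their means ran from -1.88 to -0.25 with a median of -1.08, and the SD between regions was 0.44, against 1.04 in the flank above and 0.74 over the array. The stretch below the gap, at 0.45, had about the same spread as the window. By limma's fit over all regions, with Benjamini-Hochberg adjustment at 0.05, 25 of 26 were lower than the array median and 0 were higher, since none had a mean above 0, beside a background of 38.1% lower and 28.0% higher over the array. Those counts repeat the choice of the window and nothing is read from them. In the flank above 19 regions were lower, 16 higher and 9 neither. A mean at or under -1 was found for 14 of 26 window regions, beside 8.12% of all regions. Of the 26, 11 were under the 5th percentile of all regions (-1.15), 15 under the 10th (-0.93) and 23 under the 25th (-0.55). Between pools, Pearson's r over the 26 regions was 0.41 to 0.69, against 0.90 to 0.93 over all regions, given as a description over regions that share arrays. A narrower range of values lowers r, and the window's SD of 0.44 was under the array's 0.74. Its part in the lower r was not tested.

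Low values filled the window from end to end. Regions from 22 to 22.5 Mb had a mean of -1.02 ± 0.29 (14 regions) and those from 22.5 to 23 Mb of -1.08 ± 0.25 (12 regions), which overlapped across pools. In steps of 100 kb the means ran from -0.55 ± 0.37, in a step with 1 region, to -1.45 ± 0.35 in the step starting 800 kb into the window. No step of the window was above 0. Just inside the upper limit, chr8:22995745-22996059, of 3 probes, had -0.50, -0.75 and -0.09 in the 3 pools. Just outside it chr8:23016713-23017255 had -0.92, -0.57 and -0.54, so the pool ranges of these neighbouring regions overlapped. The limit was set by position alone. Whether defensin genes end there or run on into the flank above was not tested. The 5 regions of the next 100 kb had a mean of -0.26 ± 0.07, and the 22 regions from 23.1 to 24 Mb of -0.45 ± 0.02. The 17 regions from 24 to 25 Mb stood at 0.65 ± 0.08, and 11 of them were called higher. The nearer part of the flank was thus lower than the farther part in all pools. Against 23 to 24 Mb alone, the window's difference shrank to -0.63 ± 0.25.

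Below the gap, means over stretches of unequal size were lower nearer the gap. The 8 regions from 18 to 19 Mb had a mean of -0.04 ± 0.01, the 13 from 19 to 19.5 Mb of -0.56 ± 0.24, and the 2 from 19.5 to 20 Mb of -0.93 ± 0.10. Steps of 100 kb did not fall steadily towards the gap. The step from 19100000 had -0.70 ± 0.29 (6 regions) and the next, from 19200000, had -0.25 ± 0.21 (4 regions). That from 19400000 had -0.66 ± 0.22 (1 region). The last region before the gap, chr8:19728851-19729914, had -0.72, -0.78 and -0.94. The first region after it, chr8:22040518-22043350, had -0.50, -0.08 and -0.16, higher than the last region before the gap in every pool. In the gene order of GRCm38.p6, 17 genes of the beta-defensin list, which includes the related Spag11a and Spag11b, come before the first alpha-defensin. The GRCm38.p6 promoter positions of Defb38, Defb39 and Defb8 fall, as numbers, inside tiled regions of the stretch on mm9. That of Defb7 falls in none. The stretch may thus hold genes of the same cluster and may be no outside comparison. Whether it does was not tested, since builds were not joined.

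Among regions with input well above background in at least 50% of their probe measurements, the lowest was chr8:22813981-22814349, with -2.61, -2.17 and -0.85 and a mean of -1.88 ± 0.92. Pool 3 was far above the other pools there, and only 2 of its 9 bound measurements were well above background. The next, chr8:22389428-22389620, had -2.0, -1.63 and -1.65 (-1.76 ± 0.21). It was the shortest region of the window and had its brightest mean input, 1.13 above the array median in log2. That mean covers 3 probes, whose input ran from -0.93 to 4.98. At chr8:22968967-22969533 the pools gave -1.52, -1.77 and -1.81 (-1.70 ± 0.16), a narrow spread with input above background in all 18 measurements. A longer region, chr8:22340112-22341486, gave -2.18, -1.29 and -1.42 (-1.63 ± 0.48). These 4 regions lay below -0.8 in every pool, and their pool ranges overlapped. The remaining 4 of the 8 lowest, chr8:22844085-22845104, chr8:22727997-22728761, chr8:22203503-22204838 and chr8:22618521-22619874, had means of -1.52 ± 0.37, -1.44 ± 0.25, -1.28 ± 0.22 and -1.23 ± 0.23.

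The highest regions by the same rule were still below 0. At the upper end of the window, chr8:22995745-22996059 had a mean of -0.45 ± 0.33, and 8 of its 9 bound measurements were well above background, the largest share of the 26 regions. The region chr8:22426732-22427635 had -0.88, -0.63 and -0.15 (-0.55 ± 0.37). Next came chr8:22061636-22062899 with -0.51, -0.70 and -0.66 (-0.62 ± 0.10), which varied little between pools. The ranges of these 3 regions overlapped. The region chr8:22638486-22639052 stood at -0.67 ± 0.61 and chr8:22950008-22950595 at -0.76 ± 0.25, whereas chr8:22566894-22568210, at -0.76 ± 0.09, and chr8:22235528-22236988, at -0.82 ± 0.05, had the smallest spreads of the 8. The last of the 8, chr8:22885849-22887181, had a mean of -0.94 ± 0.14. With the authors' deposited log2 ratios, chr8:22995745-22996059 stood at -0.0085, chr8:22950008-22950595 at -0.099 and chr8:22638486-22639052 at -0.32. None of these was then called, whereas the others of the 8 were still called lower. The region chr8:22040518-22043350 was outside that ranking because its input passed background in 48.7% of measurements. It was the longest of the window, with 26 probes, and the only one not called, at -0.25 ± 0.22. Its value moved with the processing: it was -1.12 over probes with input above background and -0.58 after dropping probes that neither channel detected, both called lower, and 0.11 with the median over probes. It was also called lower with the mode as zero (-0.80) and with the authors' deposited log2 ratios (-0.58).

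The flank above had a wider range on both sides. Its highest regions, chr8:24173095-24174280, chr8:24144412-24145840 and chr8:24262554-24263916, had means of 2.29 ± 0.15, 2.21 ± 0.19 and 1.81 ± 0.15. Its lowest, chr8:23520694-23520859, chr8:23521364-23522030 and chr8:24520800-24522007, had -2.06 ± 0.65, -1.98 ± 0.29 and -1.31 ± 0.24. Single regions as low as those of the window therefore also lay outside it.

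Much of the bound signal in the window was near background. Bound DNA was well above background for 46.7%, 19.3% and 25.2% of the 270 probes in pools 1 to 3, against 72.2%, 55.9% and 60.4% in the flank above. Input passed background for 79.6%, 60.0% and 57.8%, against 86.8%, 76.5% and 77.0%. Both signals were thus weaker than in the flank in every pool, the bound signal by more. In 142 probes (52.6%) the bound signal was not well above background on any array, against 25.4% in the flank and 31.8% of all probes. Where their input was well above background, the ratio is only an upper limit. In 55 probes (20.4%) neither channel was well above background on any array, against 10.3% and 14.3%, so these carry no measured ratio. By region, 22 of 26 (84.6%) had under 50% of bound measurements above background, against 22.7% in the flank and 40.4% of all regions. In chr8:22388648-22388901, of 3 probes, 0 of 9 bound measurements were, and its pool values of -2.18, -0.89 and -0.17 have no use as a level.

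Ratios were also low over the window's probes with signal above background. These are part of the values by which the window was chosen, so they describe it and support nothing. Among the 150 window probes with input above background on all arrays, the mean was -1.53, against -0.04 for such probes in the flank and -0.17 over the array. Of these 150, 131 (87.3%) were below 0 in every pool, beside 43.1% in the flank and 43.3% over the array. Above 0 in every pool were 6 (4.0%), beside 42.9% in the flank and 36.4% over the array. With bound and input signal both above background on every array, 46 probes were left in the window, at -1.25, -1.26 and -1.15 and a mean of -1.22 ± 0.06. The pools nearly coincided on these probes. The corresponding 300 probes of the flank had a mean of 0.48 ± 0.07, and the 173292 of the array of 0.39 ± 0.13. Below 0 in every pool were 37 of the 46 (80.4%), against 28.0% and 26.0%.

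The 46 probes lay on both sides of 0. The lowest of them, at chr8:22341180-22341235, gave -2.56, -2.17 and -3.07 (-2.60 ± 0.45), and a probe at chr8:22194662-22194713 gave -2.56, -2.50 and -2.49 (-2.52 ± 0.04), the smaller spread by far. Above 0 in every pool were 5 of the 46, beside 177 of 300 in the flank and 94668 of 173292 over the array. The highest, at chr8:22950551-22950595, gave 2.13, 1.90 and 1.63 (1.89 ± 0.25), inside a region whose mean was -0.76 ± 0.25. That probe, like the others named in this paragraph, was chosen after its value was seen. Its neighbours in that region, chr8:22950290-22950334 and chr8:22950437-22950485, had -0.25 ± 0.28 and -0.60 ± 0.37, and none of their pools reached its lowest pool. At the other end of the window the probe chr8:22043197-22043247 gave 1.07, 0.72 and 1.38 (1.06 ± 0.33), with another measured probe of its region, chr8:22042206-22042250, at -0.63 ± 0.05. High and low probes were thus found within 1 region in both cases.

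At single probes, limma's fit over 409559 probes called 143 of the 270 lower (53.0%) and 19 higher (7.04%), beside 23.6% lower and 22.4% higher over the array. These counts too repeat the choice of the window and nothing is read from them. Of the 143, 48 had no bound signal above background on any array and 31 had both signals above it on every array. Of the 19, 16 had neither signal above background on any array, so they have no measured ratio, and 2 had both. Leaving out pool 1, 2 or 3 left 8, 2 or 3 probes called higher, beside 15.5%, 10.4% or 13.3% over the array. Of the 14 probes that joined no region, 6 had neither signal above background on any array. Another 6 had input above background on all arrays, and their means ran from -2.26 to -0.999. All 6 of these were below 0 in every pool, beside 43.3% of probes with such input over the array.

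Input brightness was given as a sign of repeated sequence, since a probe that pairs with many copies takes up more input DNA. The window was not bright. Its regions' input signal stood at -0.05, -0.34 and -0.55 relative to the array median in log2, with a mean of -0.32 ± 0.25, against 0.16 ± 0.04 in the flank above and -0.19 over all regions. It was below the flank in every pool, by -0.17, -0.54 and -0.73 (-0.48 ± 0.29). Over probes with input above background the difference was -0.088 ± 0.25, smaller than its spread. Compared with the stretch below the gap (-0.53 ± 0.15) it was higher. Probes more than 8-fold above the median input were 10 of 270 in the window (3.70%), 6.18% in the flank and 3.88% of all probes. Both regions nearest below the gap were much brighter, at 1.87 and 2.73 above the median, with ratios of -1.04 ± 0.19 and -0.81 ± 0.12. Brightness also depends on base composition and on amplification, so the number of copies was not measured.

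**Figure D2:**
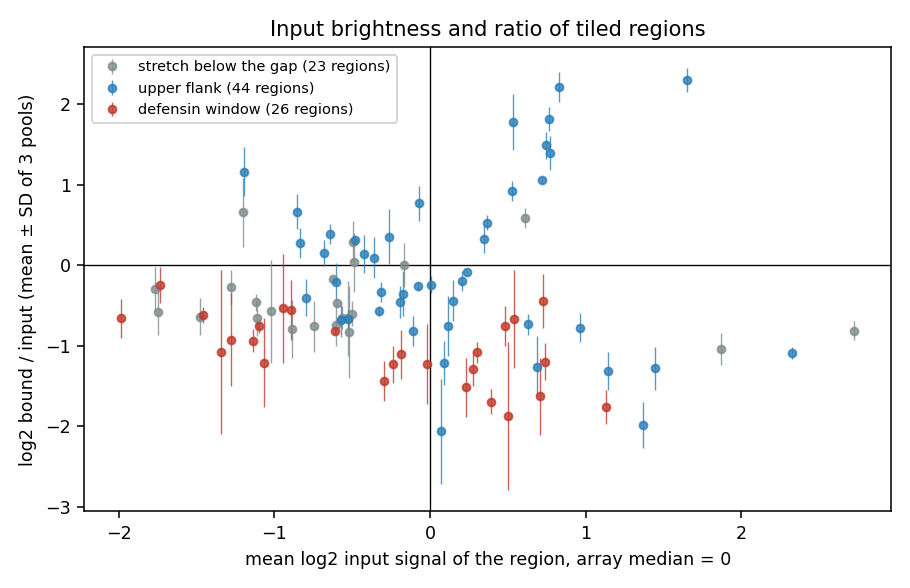
Mean log2 ratio of bound over input DNA (vertical axis, bars ± SD of 3 pools) against mean log2 input signal relative to the array median (horizontal axis) for each tiled region of the stretch below the gap, the defensin window and the flank above. Window regions span input values from -1.98 to 1.13 and stay below 0 on the vertical axis; the brightest region of the window, at 1.13, has a ratio of -1.76.

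The brightest window regions after chr8:22389428-22389620 were chr8:22193745-22194963, with input at 0.74 and a ratio of -1.198 ± 0.23, and chr8:22995745-22996059, at 0.73 and -0.45 ± 0.33. The dimmest were chr8:22372381-22373072 at -1.98, chr8:22040518-22043350 at -1.73 and chr8:22061636-22062899 at -1.45, with ratios of -0.66 ± 0.24, -0.25 ± 0.22 and -0.62 ± 0.10. The dimmest regions were nearer to 0 than the window mean, and in them 5 to 17% of bound measurements passed background.

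The distance between the window and all probes of the array widened with input signal. In probes whose input was more than 2 below the median in log2, the window (72 probes) stood at 0.30 ± 0.34, beside 0.35 in the flank and 0.34 over the array, and 71 of the 72 had no bound signal above background. At these probes the parts were the same within the pool spread. Between 0 and 1 the 45 window probes had a mean of -1.58 ± 0.15, against -0.03 ± 0.08 in the flank and -0.26 ± 0.11 over the array. Between 1 and 2 the 34 window probes had -1.61 ± 0.22, against 0.10 ± 0.11 and -0.15 ± 0.11. In the brightest class, more than 2 above the median, the 32 window probes gave -1.73, -1.86 and -1.71 (-1.77 ± 0.08). All 32 were below 0 in every pool. In the same class the 93 flank probes had a mean of -0.12 ± 0.06 with 48 below 0 in every pool, and the 33 probes of the stretch below the gap of -0.69 ± 0.08 with 23. The 50012 probes of this class over the array stood at 0.09 ± 0.10, with 20338 below 0 in every pool. Input is the denominator of the ratio, so an error in it moves both axes. The part of such error in the widening was not tested. Probes of a class share regions and are not replicates.

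**Figure D3:**
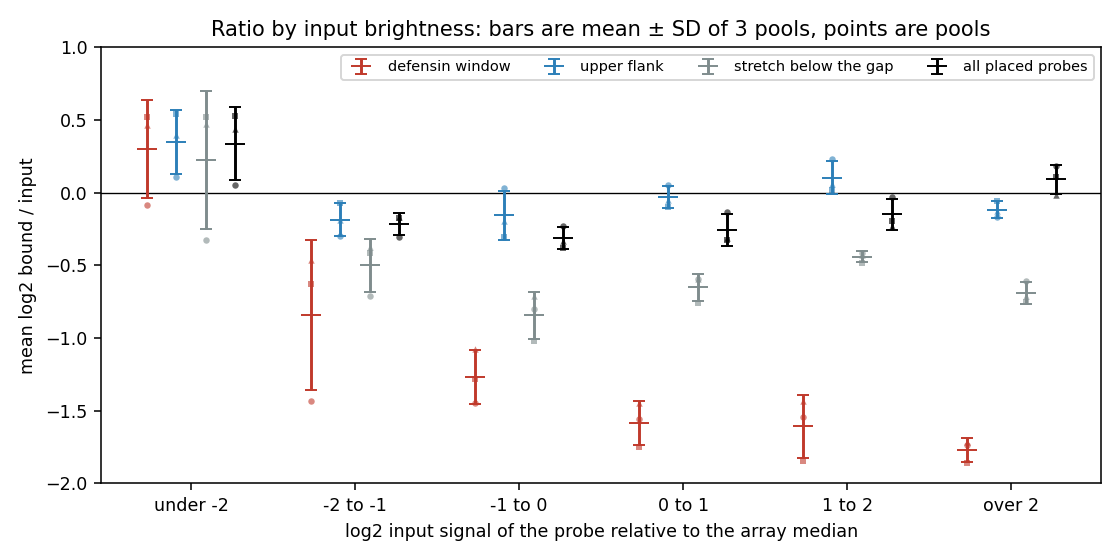
Mean log2 ratio of bound over input DNA (vertical axis) in 6 classes of probes by log2 input signal relative to the array median (horizontal axis), for the defensin window, the flank above, the stretch below the gap and all placed probes. Points are pools and bars the mean ± SD of 3 pools; the window lies with the other parts in the dimmest class (0.30) and falls to -1.77 in the brightest, where all probes stand at 0.09.

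The ratio along a region was described from its midpoint outwards. In the 13 window regions of 1000 to 1800 bp, probes within 200 bp of the middle had a mean of -1.08 ± 0.21. Those at 200 to 400 bp had -1.19 ± 0.16, those at 400 to 600 bp -0.98 ± 0.09, and the 16 probes farther out -0.70 ± 0.21. The flank rose from -0.11 to 0.43 and all such regions of the array from -0.19 to 0.09 over the same distances. The window thus kept below both at every distance, in all pools. Centre minus edges was taken in regions of 1000 to 1800 bp with at least 8 probes. At least 2 of these had to lie within 200 bp and 2 beyond 500 bp. For 9 window regions it was -0.32, -0.49 and -0.25 (-0.35 ± 0.12). It was -0.16 ± 0.25 in 28 flank regions and -0.29 ± 0.08 in 18326 regions of the array. These means overlapped within their spread. The window's value moved widely with the processing, from -0.089 ± 0.05 with normexp to -1.01 ± 0.20 over probes with input above background, which left 5 regions.

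Of the 9, 3 were called lower in the centre and 1 higher, beside 33.5% and 14.7% over the array, and 5 were not called. Without pool 2 the calls in the lower direction fell to 1. The steepest was chr8:22193745-22194963, with a centre at -1.38 ± 0.61 and edges at 0.26 ± 0.05, a difference of -1.63 ± 0.57. Pool means above 0 at the edges were also found at chr8:22061636-22062899, at 0.06 ± 0.33, but there the pool spread covered 0. The regions chr8:22933059-22934171 and chr8:22061636-22062899 had differences of -0.87 ± 0.65 and -0.86 ± 0.76. The opposite shape was found at chr8:22566894-22568210, with a centre at -0.07 ± 0.23 and edges at -1.23 ± 0.20, a difference of 1.16 ± 0.42. The regions chr8:22084209-22085312, at 0.60 ± 0.97, and chr8:22203503-22204838, at 0.03 ± 0.38, came next and were not called.

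**Figure D4:**
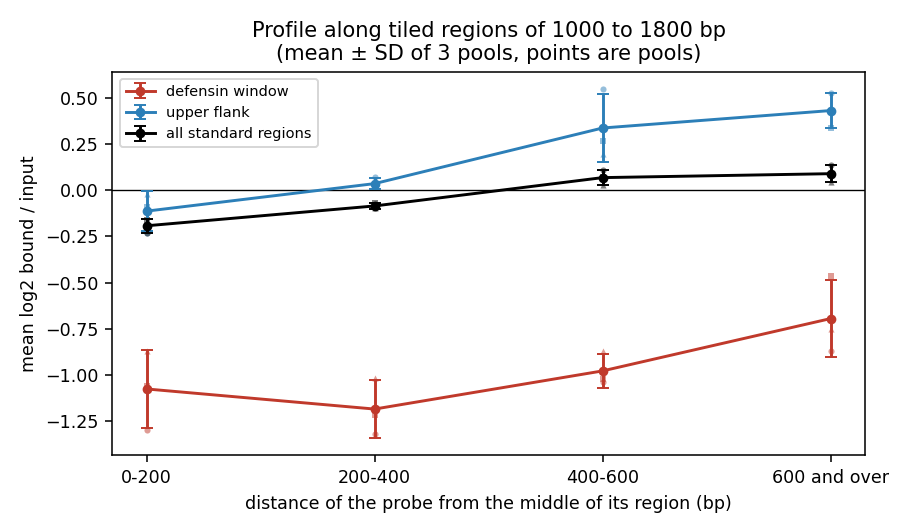
Mean log2 ratio of bound over input DNA (vertical axis) by distance of the probe from the middle of its region in bp (horizontal axis), in regions of 1000 to 1800 bp of the defensin window, the flank above and the whole array. Points are pools and bars the mean ± SD of 3 pools; the window runs from -1.08 in the middle to -0.70 farthest out and stays below the other lines.

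Set among other megabases, the window was the lowest of the 453 windows of 1 Mb with at least 20 tiled regions, whose median was -0.03. The next were the megabases from 143 Mb of chromosome 4 (-0.89, 32 regions), from 42 Mb of chromosome 14 (-0.83, 23 regions) and from 8 Mb of chromosome 19 (-0.61, 30 regions). This ranking describes how the window was found and was added after the data were seen. Its place moved with the processing: with normexp background correction the window was 2nd lowest at -0.42, with loess 4th at -0.84, and with the authors' deposited log2 ratios 1st at -0.91. With at least 10 regions per window it was lowest of 1078 as processed here, 5th with normexp, 8th with loess, 4th with the authors' deposited log2 ratios and 3rd with input above background. With windows shifted by 0.5 Mb, the megabase from 22.5 Mb was 16th lowest of 1070 with at least 10 regions, at -0.63. The one from 21.5 Mb holds only the 14 regions of 22 to 22.5 Mb, since nothing below was tiled, and so is no separate placement.

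**Figure D5:**
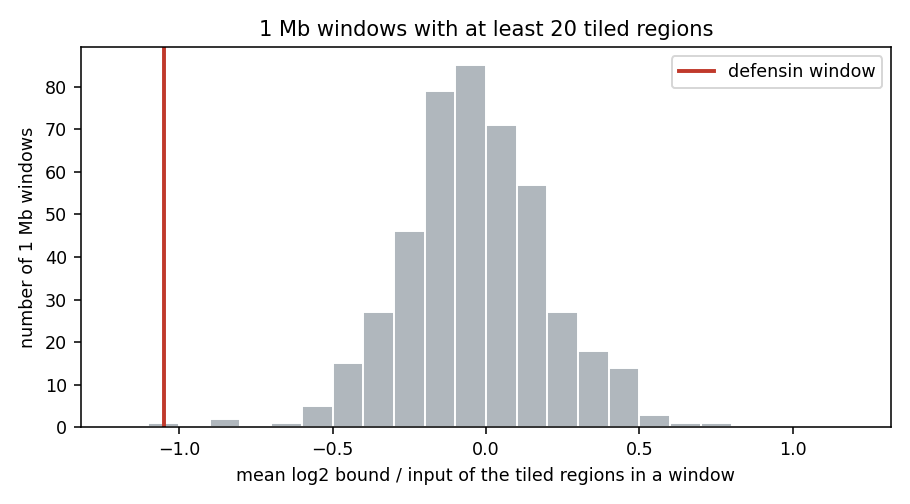
Number of 1 Mb windows (vertical axis) by mean log2 ratio of bound over input DNA of their tiled regions (horizontal axis), for the 453 windows with at least 20 regions, in bins of 0.1. The red line marks the defensin window at -1.05; the median of all windows is -0.03.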

How the data were processed

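Methylated and input DNA of 3 pools were compared on 3 custom arrays. Per the file headers, the authors' deposited intensities come from Agilent Feature Extraction 10.7.3.1, are background-subtracted and dye-normalised, and are placed on mm9. The log2 ratios deposited by the authors in the series matrix served as an alternative; their normalisation step was not stated in the labels. The log2 ratio of bound over input intensity was centred on each array's median, which had been -0.19, -0.19 and -0.09. Outlier spots (10 to 17 per array) were left out and repeated spots averaged. Region means were fitted over all 28880 regions with limma 3.58.1 (R 4.3.3) as 1 group against 0, with Benjamini-Hochberg adjustment at 0.05. The fit was tested on simulated data. With 3 arrays no exact two-sided sign-flip p can go below 0.25, and their number limits the precision.

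The members, lists and tests were chosen with earlier results of these data known. Named regions were the 8 highest and 8 lowest means among those with input above background in at least 50% of measurements, the 3 brightest, dimmest and longest, the 3 largest and smallest centre minus edges, and the 3 highest and lowest of the flank. Promoters named were those with the most and fewest CpGs, ties by symbol. Alternatives were the mode as zero, normexp (offset 50, on spot medians, as spot means are not in the files used), loess (span 0.3), the series matrix, background filters, joining at 300 or 1000 bp, at least 8 probes, medians, and leaving out each pool. Promoters were from RefSeq (GRCm38.p6).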

Additional observations from a re-analysis of the deposited data

How the results depend on the processing

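The mean difference from the flank above stayed negative under every alternative run, from -0.46 with normexp to -1.61 with both channels above background. It was -1.51 with input above background, -0.63 against 23 to 24 Mb alone and -0.64 against the stretch below the gap, and without each pool it ran from -1.19 to -0.90. Regions called lower numbered 25 of 26, beside 38.1% of all regions. They were 6 of 7 with both channels above background (22.6% of all regions) and 14 of 15 with at least 8 probes (40.6%). They were 20 of 26 with medians (31.8%), and 22 of 26 with normexp (36.4%) and with loess (31.0%). With the authors' matrix they were 21 of 24 (36.5%), and without each pool 24 to 25 (31.8 to 36.5%). Regions called higher went from 0 to 1 with both channels above background and with joining at 300 bp. Probes called lower were 143 of 270, beside 23.6% of all probes. They were 93 of 224 with the authors' matrix (16.3% of all probes) and 35 of 46 with both channels above background (22.3%). Without each pool they ran from 99 to 133 (14.3 to 21.1%). Probes called higher were 19 of 270, beside 22.4% of all probes. They were 2 with the mode as zero (9.81% of all probes), 5 with loess (18.5%) and 3 with normexp (18.2%). They were 4 of 224 with the authors' matrix (26.9%), 4 of 46 where both channels passed background (49.4%) and 3 of 150 where input did (28.9%). After dropping probes that neither channel detected they were 3 of 215 (22.9%), and without each pool 2 to 8 (10.4 to 15.5%). Centre minus edges went from -0.35 to -0.089 with normexp, -0.54 with the authors' matrix, -1.01 with input above background, -0.78 after dropping probes that neither channel detected and -0.60 with joining at 1000 bp. Its calls in the lower direction went from 3 to 5 with medians and 1 to 2 without each pool, and the 1 higher call went to 0 with the authors' matrix, with input above background and after dropping undetected probes. It could not be computed with both channels above background, since no region kept enough probes. Input brightness against the flank went from -0.48 to -0.088 with input above background, and to 0.21 against the stretch below the gap; without each pool it ran from -0.64 to -0.35. Of 277 values of named regions, 260 kept direction and call, 11 kept direction but lost the call, 4 kept direction and gained it (all at chr8:22040518-22043350), and 2 reversed: chr8:22950008-22950595 at 0.35 with both channels above background, and chr8:22040518-22043350 at 0.11 with medians. The cause of these changes was not tested. No paired analysis was possible because there is 1 group.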
